A study of Homo sapiens with 21 samples.

Results

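The interferon-stimulated genes described here are 41 symbols named as a list before this report was written: the IFITM genes and BST2, the ISG15 system, the IFIT family, the cytosolic RNA sensors, the MX and OAS families, the interferon transcription factors and other effectors. Members were found by symbol in both expression tables of the PC-9 experiments, and all 41 were present among the 20111 genes listed. No measured value entered the choice, but earlier results of these data were known when the list was made.

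Interferons bind receptors at the cell surface and act through the JAK kinases and STAT factors. Type I and III interferons act through a complex that holds STAT2 and IRF9 and binds a DNA element called the ISRE, and type II interferon acts mainly through the GAS element. The induced genes hinder viruses at entry, replication or release, and many of them are also transcribed at a low level in epithelial tumor cells without added interferon.

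PC-9 is an established lung adenocarcinoma cell line with an activating in-frame deletion in EGFR. The label of the first parental library gives it as EGFR delE746-A750, and since the end position climbs by 1 with each further library in the labels, those of the others were not used. EGFR-low and EGFR-high cells were derived from the parental line by 6 rounds of antibody sorting for the dimmest and the brightest cells, as bulk populations rather than clones. In the untreated experiment, parental, EGFR-low and EGFR-high cells were harvested 24 h after seeding. In the vorinostat experiment, EGFR-low and EGFR-high cells were given DMSO, the solvent, or 1 µM vorinostat (SAHA), an inhibitor of histone deacetylases, for 72 h starting 24 h after seeding. Each of the 7 groups had 3 replicate libraries of polyadenylated RNA, 21 in all. The values were read as FPKM, fragment numbers scaled per kilobase of transcript and per library size. How many fragments stand behind each value is not given. The 2 experiments were fitted separately and were not tested against each other, so levels set across them are descriptions.

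The promoters of the members shared sequence that the list did not use. Windows from 250 bases before to 50 bases after a gene start were available from RefSeq (GRCh38.p14) for 32 of the 41 members, in 41 windows, with DDX58 matched under its newer symbol. IFITM2, USP18, IFIT2, DHX58, MX2, OAS2, OASL, IRF7 and TRIM22 had no window. The ISRE core, searched on both strands as GAAA, any 2 bases and GAAA, occurred in 26 of the 41 member windows (63.4%), against 3.57% of all 35116 windows, and 22 of the 32 members held it. The GAS letters TTCNNNGAA, which read the same on both strands, occurred in 11 of the 41 windows (26.8%), against 7.66% of all windows. The windows of IFI27 overlapped and held the same ISRE cores, and so did those of IFI44. The window counts therefore include some sites more than once. A match describes the letters only, and binding was not measured. The genes whose RNA differed most are shown first, as whole windows 5′ to 3′ on the strand of the gene, with the ISRE core in capitals.

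IFITM1, chr11:313790-314089, plus strand: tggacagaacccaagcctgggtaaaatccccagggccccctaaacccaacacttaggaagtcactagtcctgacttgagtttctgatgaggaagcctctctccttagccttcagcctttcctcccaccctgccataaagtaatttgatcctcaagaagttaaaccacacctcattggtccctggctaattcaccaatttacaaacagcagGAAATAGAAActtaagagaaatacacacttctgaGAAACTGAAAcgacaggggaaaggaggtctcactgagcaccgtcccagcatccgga
IFITM3, chr11:320811-321110, minus strand: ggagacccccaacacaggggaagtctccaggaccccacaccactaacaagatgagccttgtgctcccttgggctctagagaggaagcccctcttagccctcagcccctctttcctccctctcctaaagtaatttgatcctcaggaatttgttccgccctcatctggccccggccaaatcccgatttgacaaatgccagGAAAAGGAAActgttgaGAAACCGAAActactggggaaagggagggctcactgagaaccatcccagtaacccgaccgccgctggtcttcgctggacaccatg
IFI44, chr1:78649539-78649838, plus strand: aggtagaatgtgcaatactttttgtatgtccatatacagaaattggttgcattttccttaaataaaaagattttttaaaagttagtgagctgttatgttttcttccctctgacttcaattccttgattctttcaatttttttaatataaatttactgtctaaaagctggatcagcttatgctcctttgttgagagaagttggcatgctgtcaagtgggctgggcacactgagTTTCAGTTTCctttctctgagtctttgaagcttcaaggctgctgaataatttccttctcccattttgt
BST2, chr19:17405581-17405880, minus strand: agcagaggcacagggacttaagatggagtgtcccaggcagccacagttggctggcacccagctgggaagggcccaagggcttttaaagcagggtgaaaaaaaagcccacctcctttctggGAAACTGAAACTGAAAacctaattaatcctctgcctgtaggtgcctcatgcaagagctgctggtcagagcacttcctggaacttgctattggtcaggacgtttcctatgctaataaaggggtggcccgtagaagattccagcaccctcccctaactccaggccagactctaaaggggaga

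IFITM1 and IFITM3 each held 2 separate ISRE cores, those of IFITM3 closely spaced upstream of the start, and the later core of IFITM1 spanned the start and overlapped a GAS match. In IFI44 the core was on the opposite strand. In BST2, which differed in direction from the other members in the vorinostat experiment, 2 ISRE cores overlapped each other, 1 GAS match overlapped the first of them and another lay nearer the start. Single matches with 10 bases on each side are shown for the members of the ISG15, IFIT and OAS groups that recur below. The ISG15 stretch also held another core that overlapped the match, so both are in capitals. In IFIT3 and IFIT5 the core was on the opposite strand.

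ISG15, chr1:1013374-1013403, plus strand: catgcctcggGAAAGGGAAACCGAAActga
IFIT3, chr10:89327831-89327860, plus strand: agccgttaggTTTCATTTTCctcctcccaa
IFIT5, chr10:89414513-89414542, plus strand: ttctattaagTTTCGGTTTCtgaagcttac
OAS3, chr12:112938321-112938350, plus strand: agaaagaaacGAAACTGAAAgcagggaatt

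EGFR, the gene sorted for, was checked in every library. It stood at 60.2, 26.5 and 60.6 FPKM in untreated EGFR-low cells, against 269, 161 and 243 FPKM in EGFR-high and 261, 120.1 and 244 FPKM in parental cells. In the vorinostat experiment it was 16.1 to 43.3 FPKM in the 6 EGFR-low libraries and 83.3 to 207 FPKM in the 6 EGFR-high libraries, so the sort labels and the EGFR values did not cross. The 6 epithelial markers (EPCAM, CDH1 and 4 keratins) were each at 1 FPKM or more in every library, with sums of 1552 to 4045 FPKM. The fibroblast list summed to 1.02 to 5.88 FPKM with 1 of 6 markers (COL1A1) over 1 FPKM. FPKM sums per library were 467897 to 592942 and 511011 to 582866 in the 2 experiments, and mitochondrial genes held 6.58 to 13.2% and 7.27 to 24.2% of them.

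Several libraries stood apart, and the results below rest partly on them. For 45 genes over 20 FPKM in EGFR-low DMSO replicates 2 and 3 and under 1 FPKM in EGFR-high DMSO replicates 1 and 2, EGFR-high DMSO replicate 3 stood at a median of 25.04% of the EGFR-low level and EGFR-high vorinostat replicate 1 at 2.45%. The same genes were at a median under 0.1% of that level in all 9 untreated libraries, the EGFR-low ones included. For 67 genes with the reverse pattern, EGFR-low DMSO replicate 1 stood at 22.0% of the EGFR-high level. The 67 genes were at 0.372 to 0.552% in the other EGFR-low libraries of that experiment and at 65.4 to 77.5% in untreated EGFR-low cells. The EGFR-low libraries of the vorinostat experiment therefore differed from the untreated libraries of that name in genes near 0 in one and abundant in the other. The thresholds of 20 and 1 FPKM were chosen after the values were seen, 2 of the 45 genes and 0 of the 67 are members, and the source of these differences was not tested. EGFR-high DMSO replicate 3 and EGFR-low DMSO replicate 1 are called the intermediate libraries, and results are also given without them. Leukocyte markers were highest in the same pair: LYZ, lysozyme of myeloid cells, was 7.28 FPKM in EGFR-low DMSO replicate 1 and 2.76 in EGFR-high DMSO replicate 3 against at most 1.85 elsewhere. PTPRC and CD3E stayed under 1 FPKM throughout, and the 7 leukocyte markers summed to 0.612 to 10.7 FPKM. In DMSO, CD14 of the leukocyte list and KDR of the endothelial list were called higher in EGFR-low cells (log2 fold changes 0.82 and 1.91) and, of the 6 epithelial markers, CDH1 was higher (1.06) and KRT8, KRT18 and KRT19 were lower (-1.46, -0.94 and -1.31). CD14 and KDR were under 1 FPKM in every EGFR-high library of the vorinostat experiment, so the filter partly fixed their direction. The part of RNA from other cells in the members' values was not tested.

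**Figure D1:**
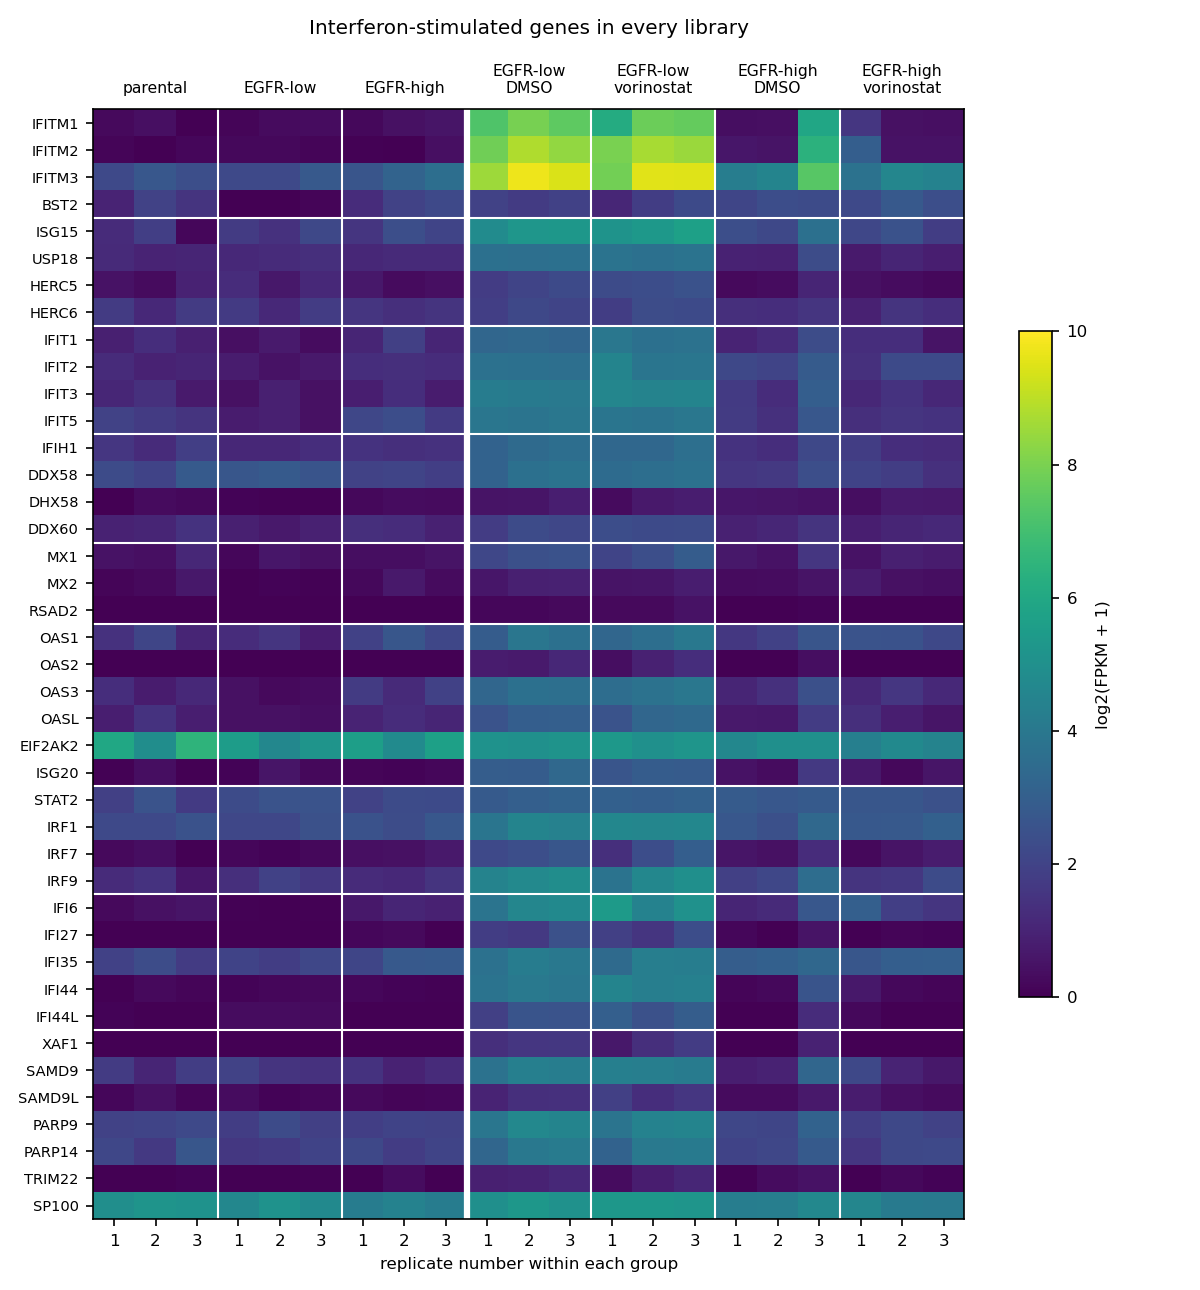
Level of each of the 41 members, as log2(FPKM + 1), in the 21 libraries; columns are replicates within the 7 groups, the thick white line separates the untreated from the vorinostat experiment, and thin lines separate the roles. EGFR-low libraries of the vorinostat experiment are bright for most members, EGFR-high DMSO replicate 3 is brighter than its replicates, and the 9 untreated libraries are dark for most.

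The untreated comparison asks whether sorting for EGFR went with a difference in these genes. Of the 41 members, 24 reached 1 FPKM in at least 3 of the 9 untreated libraries and were tested. The other 17 were low in all, at no more than 1.44 FPKM in any untreated library: IFITM1, IFITM2, HERC5, DHX58, MX1, MX2, RSAD2, OAS2, ISG20, IRF7, IFI6, IFI27, IFI44, IFI44L, XAF1, SAMD9L and TRIM22. RSAD2, encoding viperin, was listed at 0 in every one. The members with the highest untreated levels were EIF2AK2, the RNA-activated kinase PKR, at 24.0 to 90.5 FPKM, and SP100, a nuclear body protein, at 17.3 to 34.8 FPKM. No other member exceeded 11.3 FPKM.

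BST2, IFIT5 and OAS3 fell in EGFR-low cells relative to EGFR-high cells, and no member rose. The test was limma's on log2(FPKM + 1) with p-values adjusted by Benjamini-Hochberg over all 11305 genes, and a call is an adjusted p under 0.05. The 3 of 24 called lower stand beside 3.81% of all genes tested called, 2.19% lower and 1.62% higher. All 3 were under 1 FPKM in every EGFR-low library and passed the filter through the other groups, so their direction is partly fixed by the filter. Over the 24 members the median log2 fold change was -0.25, against -0.03 over all genes tested, with 8 above 0 and 16 below.

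BST2, or tetherin, holds budding virus particles at the cell surface. It was listed at 0, 0 and 0.0938 FPKM in the 3 EGFR-low libraries, against 1.44, 2.97 and 3.57 FPKM in EGFR-high and 0.986, 2.89 and 1.81 FPKM in parental cells. Every EGFR-low library was below every other untreated library. The log2 fold change to EGFR-high was -1.78 (SE 0.28, adjusted p = 0.00532).

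IFIT5 belongs to the tetratricopeptide proteins that bind foreign 5′ ends of RNA. It was at 0.677, 0.838 and 0.375 FPKM in EGFR-low cells and at 3.37, 4.19 and 2.26 FPKM in EGFR-high cells, without overlap. Its mean was 5.20-fold higher in EGFR-high cells, and the log2 fold change was -1.38 (SE 0.23, adjusted p = 0.00688). The parental libraries, at 2.93, 2.34 and 1.85 FPKM, were again all above the EGFR-low ones.

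OAS3 makes the 2′-5′ oligoadenylate that activates RNase L. It was at 0.364, 0.207 and 0.250 FPKM in EGFR-low cells and at 2.36, 1.31 and 2.84 FPKM in EGFR-high cells. The mean was 7.93-fold higher in EGFR-high cells (log2 fold change -1.28, SE 0.23, adjusted p = 0.00957). The parental libraries, at 1.45, 0.703 and 1.24 FPKM, were all above the EGFR-low ones and overlapped the EGFR-high ones.

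IFITM3, which blocks virus fusion in endosomes, was the only IFITM gene tested here. It was at 3.65, 3.60 and 5.91 FPKM in EGFR-low, 5.29, 7.97 and 11.3 FPKM in EGFR-high and 3.65, 5.54 and 4.35 FPKM in parental cells. The ranges of EGFR-low and EGFR-high cells overlapped and the difference did not pass (log2 fold change -0.74, SE 0.29, adjusted p = 0.27). IFITM1, which acts at the plasma membrane, was at no more than 0.499 FPKM and IFITM2 at no more than 0.339 FPKM in all 9 untreated libraries.

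Same-numbered EGFR-low and EGFR-high libraries deviated together, with correlations over 0.1 in each pair, so the replicate number was also used as a block. With the block 7 of the 24 members were lower in EGFR-low cells and none higher, beside 8.54% of all genes called. The 4 added were IFIT1 (log2 fold change -0.83, adjusted p = 0.0196), IFIT2 (-0.66, 0.0318), OAS1 (-1.03, 0.0144) and OASL (-0.68, 0.0466), all from limma. IFIT1, IFIT2 and OASL were also under 1 FPKM in every EGFR-low library and passed the filter through the other groups, so the limit given for BST2, IFIT5 and OAS3 holds for them too. IFIT1 was at 0.330, 0.647 and 0.261 FPKM in EGFR-low and 1.08, 2.67 and 1.045 FPKM in EGFR-high cells, and OAS1 at 1.42, 1.94 and 0.734 against 2.81, 5.39 and 3.36 FPKM. Each of the IFIT2 and OASL libraries of EGFR-low cells was likewise below each EGFR-high one. Without the block 11 of the 24 members had an unadjusted p under 0.05.

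By role, of the 4 IFIT genes 1 passed, with a median log2 fold change of -0.75 over the 4. Of the 4 tested OAS, PKR and ISG20 genes 1 passed (median -0.86). None of the 3 tested RNA sensors, 3 ISG15 system genes, 3 transcription factors, 4 other effectors or the 1 tested IFI gene passed. DDX58, the sensor RIG-I, was at 5.31, 6.04 and 4.97 FPKM in EGFR-low and 2.93, 3.13 and 2.62 FPKM in EGFR-high cells, without overlap, but did not pass (log2 fold change 0.73, SE 0.24, adjusted p = 0.164). Counting libraries, 8 of the 24 members were lower in every EGFR-low than in every EGFR-high library, beside 11.2% of all genes tested, and 2 were higher in every one (DDX58 and SP100), beside 9.39%. Of the 8, BST2, IFIT1, IFIT2, IFIT5, OAS3 and OASL were under 1 FPKM in every EGFR-low library, so the filter partly fixed their direction. The others were IFIH1 and OAS1.

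Against parental cells, EGFR-low cells had 1 member called of 24, BST2 (log2 fold change -1.44, SE 0.28, adjusted p = 0.0285), beside 1.60% of all genes called, 0.831% higher and 0.770% lower. This call was lost, at an adjusted p of up to 0.16 over all alternatives, when any of the 3 EGFR-low libraries, or parental replicate 2 or 3, was left out. Counting libraries, 7 of the 24 members were lower in every EGFR-low than in every parental library, beside 8.02% of all genes. The 7 were BST2, IFIT1, IFIT2, IFIT5, DDX60, OAS3 and OASL, each under 1 FPKM in every EGFR-low library. They passed the filter through the other groups, so their direction is partly fixed by it. With the replicate block the parental comparison had 2 members called lower, BST2 and IFIT5 (each adjusted p = 0.0145 by limma), beside 4.64% of all genes, but the numbers were not shown to pair these groups. EGFR-high cells had 0 of 24 members called against parental cells by limma, beside 0.0708% of all genes called, 0.0619% higher and 0.00885% lower, and 5 members had an unadjusted p under 0.05.

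**Figure D2:**
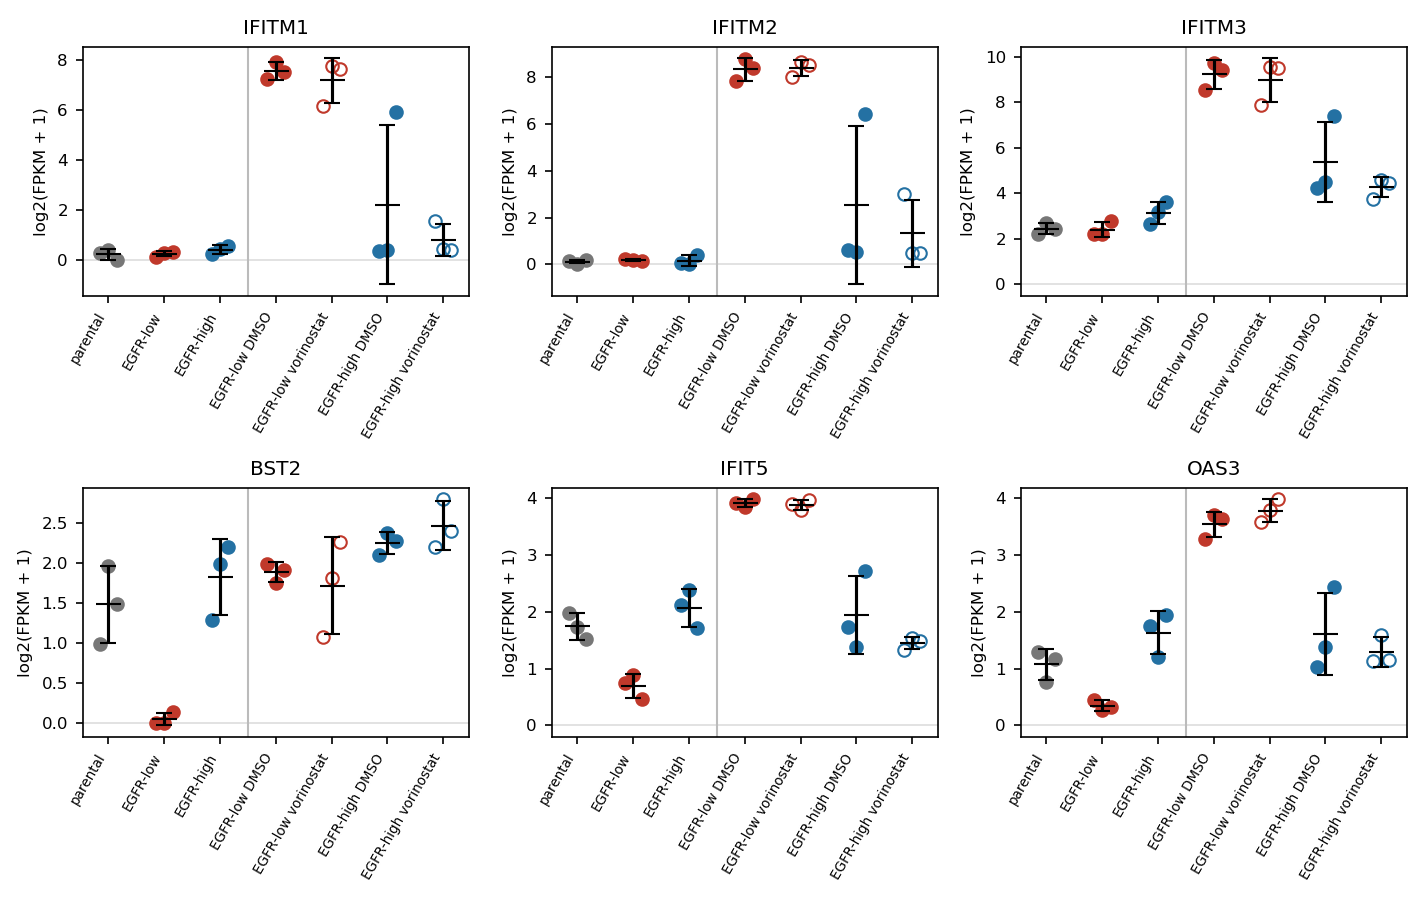
Level of 6 members, as log2(FPKM + 1), in each group; points are libraries, bars are the mean and SD of 3 libraries, open circles are vorinostat, and the grey line separates the experiments. The EGFR-low libraries are lowest among untreated cells for BST2, IFIT5 and OAS3, and in the vorinostat experiment they are above the EGFR-high libraries for each gene but BST2; EGFR-high DMSO replicate 3 sits apart for the IFITM genes.

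In DMSO, EGFR-low cells had more RNA of most members than EGFR-high cells. The filter passed 36 of the 41 members, and 33 of them rose in EGFR-low cells while none fell. This stands beside 51.8% of all 12236 genes tested called, 31.1% higher and 20.7% lower. Counting libraries, 34 members were higher in every EGFR-low than in every EGFR-high library and 1 was lower in every one, beside 40.9% and 28.4% of all genes. The median log2 fold change was 1.75 over the members and 0.12 over all genes tested. Of the 36 members, 13 did not reach 1 FPKM in 3 EGFR-high libraries and so entered the test through EGFR-low cells, which makes their direction part of the filter. The 13 were IFITM1, IFITM2, USP18, HERC5, MX1, OASL, ISG20, IRF7, IFI27, IFI44, IFI44L, XAF1 and SAMD9L. Of the remaining 23, 20 rose. In bulk RNA, a change in the share of cells that express a gene and a change in RNA per cell cannot be told apart.

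The IFITM genes had the largest fold changes of the 36 members on the log2(FPKM + 1) scale. IFITM1 and IFITM2 entered the test through EGFR-low cells, so their direction was partly fixed by the filter. With a pseudocount of 0.1, IFI44 (4.45) and IFI44L (3.99) were above IFITM3 (3.90), and IFITM1 and IFITM2 were again the highest. IFITM1 was at 149, 245 and 183 FPKM in EGFR-low DMSO cells, against 0.292, 0.311 and 58.9 FPKM in EGFR-high DMSO cells. IFITM2 was at 228, 442 and 334 FPKM against 0.530, 0.454 and 85.3 FPKM. IFITM3 was at 370.3, 855 and 689.5 FPKM against 17.6, 21.8 and 168 FPKM. The groups did not overlap for any of the 3, and in each case EGFR-high DMSO replicate 3 was the high one of its group. In each of the 3 EGFR-low DMSO libraries the order was IFITM3, IFITM2, IFITM1 on the FPKM scale, which corrects for transcript length. The 3 genes are close paralogs lying together on chromosome 11, so the authors' assignment of shared reads could move values among them.

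The log2 fold changes were 5.34 for IFITM1 (SE 1.15, adjusted p = 0.00263), 5.81 for IFITM2 (SE 1.27, adjusted p = 0.00274) and 3.86 for IFITM3 (SE 0.73, adjusted p = 0.00124) by limma. Without the 2 intermediate libraries they were larger, at 7.35, 8.01 and 5.22 (adjusted p of 2.81e-06, 9.75e-06 and 2.07e-05). The sizes thus depended on this pair of libraries, and the calls held without them.

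Among the IFI genes, whose products are mostly of unsettled function, all 5 rose. IFI44 was at 13.0, 15.5 and 14.4 FPKM in EGFR-low DMSO cells and at 0.101, 0.172 and 5.04 FPKM in EGFR-high DMSO cells (log2 fold change 2.94, SE 0.50, adjusted p = 0.000656). IFI6, which acts on mitochondrial and endoplasmic reticulum membranes, was at 13.5, 22.8 and 25.6 against 1.06, 1.30 and 5.65 FPKM (2.73, SE 0.49, adjusted p = 0.000871). Without the intermediate libraries the log2 fold changes were 3.81 and 3.53. IFI44L, the neighbour and paralog of IFI44, was at 2.73, 5.13 and 4.84 FPKM against 0.0156, 0.00294 and 1.44 FPKM.

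The ISG15 system tags proteins with the ubiquitin-like ISG15, and USP18 removes the tag and restrains the interferon receptor. All 4 of its members rose. ISG15 was at 27.1, 36.9 and 37.9 FPKM against 4.27, 3.47 and 12.1 FPKM (log2 fold change 2.36, SE 0.35, adjusted p = 0.000372). USP18 was at 11.9, 11.5 and 11.9 FPKM against 0.941, 0.896 and 4.04 FPKM (2.27, SE 0.30, adjusted p = 0.000327). HERC6 was the weakest of the 4 at 0.63 (SE 0.19, adjusted p = 0.0149), and its call was lost without EGFR-low or EGFR-high DMSO replicate 2.

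All 4 IFIT genes rose, with a median log2 fold change of 1.88. IFIT3 was at 17.2, 16.4 and 15.6 FPKM against 2.23, 1.41 and 6.89 FPKM (log2 fold change 2.14, SE 0.33, adjusted p = 0.000421). IFIT5, lower in EGFR-low cells of the untreated experiment, was at 14.1, 13.4 and 14.8 against 2.34, 1.61 and 5.59 FPKM (1.97, SE 0.26, adjusted p = 0.000327). The sensors IFIH1 (MDA5), DDX58 and DDX60 rose too, by 1.77, 1.66 and 0.89 on the log2 scale, while DHX58 (LGP2) was at no more than 0.814 FPKM and was not tested.

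Of the enzymes that act on RNA, OAS1, OAS3, OASL and ISG20 rose. ISG20, an RNA exonuclease, was at 6.68, 6.48 and 9.47 FPKM against 0.400, 0.256 and 2.12 FPKM (log2 fold change 2.26, SE 0.29, adjusted p = 0.000327). OAS3 was at 8.75, 12 and 11.4 against 1.049, 1.59 and 4.38 FPKM (1.93, adjusted p = 0.000453). EIF2AK2 was high in both populations, at 33.2, 31.3 and 34.3 against 23.7, 30.6 and 30.9 FPKM, and did not pass (0.21, SE 0.15, adjusted p = 0.242).

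IRF9, the DNA-binding part of the ISRE complex, was at 21.5, 25.4 and 29.3 FPKM in EGFR-low DMSO cells against 2.76, 3.33 and 10.8 FPKM (log2 fold change 2.18, SE 0.41, adjusted p = 0.00121). IRF1 and IRF7 rose by 1.43 and 1.67 on the log2 scale. STAT2 did not pass, at 6.05, 7.12 and 7.78 FPKM against 6.41, 5.50 and 6.06 FPKM (0.19, SE 0.13, adjusted p = 0.233). Within the ISRE complex, then, the libraries separated by IRF9 and overlapped in STAT2.

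Of the other effectors 6 were tested and all rose, with TRIM22 too low at up to 1.21 FPKM. SAMD9, a growth-restraining antiviral factor, was at 12.7, 19.2 and 17.7 FPKM against 0.767, 0.934 and 8.97 FPKM (log2 fold change 2.41, SE 0.57, adjusted p = 0.00428), and its difference grew to 3.39 without the intermediate libraries. PARP9 and PARP14, ADP-ribosylation proteins that act together in interferon signaling, both rose, PARP9 by 1.90. SP100 rose least, by 0.72 (SE 0.17, adjusted p = 0.00373), from 17.8 to 24.7 FPKM in EGFR-high to 31.0 to 38.1 FPKM in EGFR-low DMSO cells. MX1, a GTPase that traps viral nucleocapsids, rose by 1.46.

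BST2 departed from this pattern. It was at 2.97, 2.37 and 2.77 FPKM in EGFR-low DMSO cells and at 3.29, 4.19 and 3.84 FPKM in EGFR-high DMSO cells, each EGFR-low library below each EGFR-high one, and the difference did not pass (log2 fold change -0.36, SE 0.26, adjusted p = 0.26). Its lowest EGFR-low library in this experiment was at 1.1 FPKM, against 0 to 0.0938 FPKM in the untreated EGFR-low libraries.

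Without the 2 intermediate libraries 33 members were again called higher, beside 49.5% of all genes called in either direction, with a median log2 fold change of 2.14. Under median-of-ratios scaling the median of all genes tested moved from 0.12 to 0.01 and the calls over all genes from 3807 higher and 2527 lower to 3207 and 3190. The member calls were again 33 higher, with a median of 1.66.

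Of the 24 members tested in both, 7 were below without overlap in untreated EGFR-low cells and above without overlap in DMSO, beside 3.20% of the 11118 genes tested in both. Of the 7, IFIT1, IFIT2, IFIT5, OAS3 and OASL were under 1 FPKM in every untreated EGFR-low library, so the filter partly fixed their untreated direction. IFIT5 and OAS3 were called in opposite directions. The difference between the experiments was not tested, since they were separate tables with other harvest times, and its cause was not tested.

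**Figure D3:**
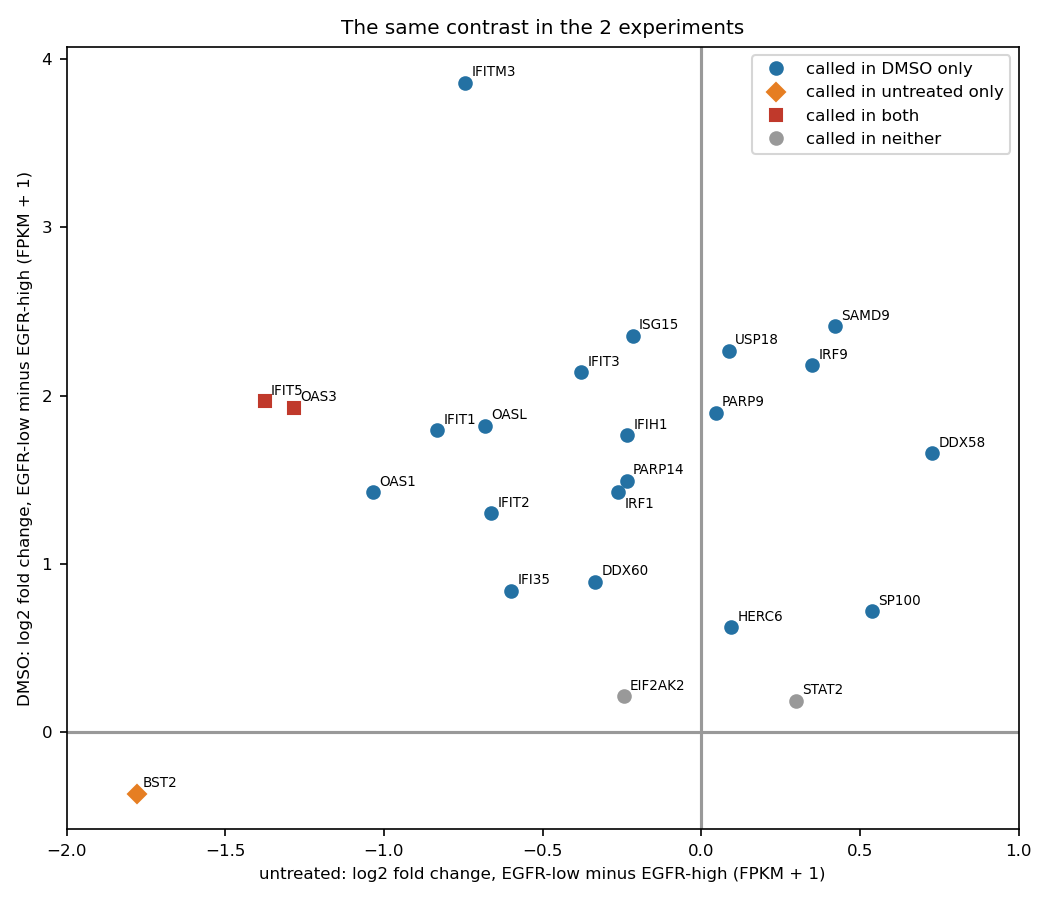
Log2 fold change of EGFR-low minus EGFR-high cells on the log2(FPKM + 1) scale for the 24 members tested in both experiments, untreated on the x axis and DMSO on the y axis; colors and shapes show in which experiment a member was called. All members but BST2 lie above 0 on the y axis, while on the x axis 16 lie below 0 and 8 above.

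Under vorinostat, all 36 tested members differed between the populations, 35 higher and 1 lower in EGFR-low cells, beside 59.0% of all genes called, 36.2% higher and 22.8% lower. The same 35 were higher in every EGFR-low than in every EGFR-high library, beside 37.3% of all genes. The median log2 fold change was 2.10, against 0.16 over all genes tested. Among the 23 members that reached 1 FPKM in 3 EGFR-high libraries, 22 rose. The other 13, named for DMSO, entered the test through EGFR-low cells, so their direction was partly fixed by the filter. Median-of-ratios scaling moved the median of all genes from 0.16 to 0.00 and the calls over all genes from 4427 higher and 2795 lower to 3650 and 3580, with 35 members called.

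On the log2(FPKM + 1) scale the IFITM genes again had the largest fold changes, and with a pseudocount of 0.1 IFI44 (5.90) and IFI44L (5.38) were above IFITM3 (4.78). IFITM1 was at 70.6, 216 and 197 FPKM in EGFR-low vorinostat cells and at 1.96, 0.366 and 0.332 FPKM in EGFR-high vorinostat cells. IFITM2 was at 255, 409 and 364.5 FPKM against 6.99, 0.417 and 0.413 FPKM, and IFITM3 at 235, 744 and 738 FPKM against 12.7, 23.4 and 20.7 FPKM. EGFR-low vorinostat replicate 1 was the lowest of its group for all 3, and EGFR-high vorinostat replicate 1 the highest of its group for IFITM1 and IFITM2 and the lowest for IFITM3. The log2 fold changes were 6.38 (SE 1.15, adjusted p = 0.000607), 7.06 (SE 1.27, adjusted p = 0.000564) and 4.71 (SE 0.73, adjusted p = 0.000219) by limma.

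IFI44 was at 21.8, 18.3 and 19.5 FPKM against 0.581, 0.175 and 0.0976 FPKM (log2 fold change 4.04, SE 0.50, adjusted p = 5.94e-05). IFIT3 was at 23.2, 21.1 and 21.7 against 1.17, 1.75 and 1.19 FPKM (3.29, SE 0.33, adjusted p = 3.82e-05), and ISG15 at 34.0, 38.9 and 50.6 against 3.38, 4.72 and 2.57 FPKM (3.22, SE 0.35, adjusted p = 4.14e-05). The IFIT3 and ISG15 libraries of EGFR-low cells were each above 20 FPKM and those of EGFR-high cells each below 5. IFIT1, which binds RNA with an unmethylated cap, was at 14.5, 11.8 and 12.7 FPKM against 1.495, 1.47 and 0.430 FPKM (2.76, SE 0.31, adjusted p = 4.40e-05). IFI44L was at 7.08, 4.64 and 6.69 FPKM against 0.175, 0.00237 and 0.0128 FPKM (2.73, SE 0.32, adjusted p = 5.02e-05).

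SAMD9, USP18, IFI6 and IRF9 rose by 2.98, 2.90, 2.85 and 2.67 on the log2 scale. IFI6 was highest in EGFR-low vorinostat replicate 1, at 42.9 FPKM against 20.6 and 32.0 FPKM in the others, and also highest in EGFR-high vorinostat replicate 1, at 7.07 FPKM against 2.57 and 1.89. IRF9 was instead lowest in EGFR-low vorinostat replicate 1, at 12.8 against 24.0 and 30.2 FPKM. EIF2AK2 and STAT2, not called in DMSO, passed here with small differences, of 0.68 (SE 0.15, adjusted p = 0.00206) and 0.45 (SE 0.13, adjusted p = 0.00932). The STAT2 call was lost under median-of-ratios scaling.

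BST2 was the one member lower in EGFR-low vorinostat cells, at 1.1, 2.52 and 3.80 FPKM against 3.60, 5.94 and 4.29 FPKM (log2 fold change -0.75, SE 0.26, adjusted p = 0.0262). The groups overlapped, and the call was lost without EGFR-low vorinostat replicate 1 or EGFR-high vorinostat replicate 2, with an adjusted p of up to 0.101.

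Against DMSO, no member passed the test for vorinostat in either population (limma). The count was 0 of 36 in EGFR-low cells, with 0 at an unadjusted p under 0.05. It was 0 of 36 in EGFR-high cells, with 2 at an unadjusted p under 0.05 (IFIT3 and EIF2AK2). The share of all genes called was 0% in both. In EGFR-low cells 6 of the 36 were higher in every vorinostat than in every DMSO library, beside 3.78% of all genes, and none was lower in every one, beside 5.69%. The 6 were HERC5, IFIT1, IFIT2, IFIT3, IRF1 and IFI44. IFIT1 was at 14.5, 11.8 and 12.7 FPKM with vorinostat and 8.91, 9.27 and 8.61 FPKM with DMSO (log2 fold change 0.49, SE 0.31, adjusted p = 1).

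In EGFR-high cells 1 member, STAT2, was lower in every vorinostat than in every DMSO library, beside 3.08% of all genes, and none was higher in every one, beside 2.25%. The signs in EGFR-high cells depended on the intermediate libraries. With all libraries 31 of the 36 members were below 0 and 5 above after vorinostat, and without EGFR-low DMSO replicate 1 and EGFR-high DMSO replicate 3 these were 17 and 19. For IFITM1 the log2 fold change was -1.41 (SE 1.15, adjusted p = 0.94) and turned to 0.43 without them, and for IFITM2 it went from -1.20 to 0.76. The values above 0 rest on EGFR-high vorinostat replicate 1, at 1.96 FPKM for IFITM1 and 6.99 FPKM for IFITM2. Replicates 2 and 3 of that group were at 0.417 FPKM or less for both genes. The difference between the populations in their response, the interaction, had 0 of 36 members called, and 3 (IFIT1, IFIT3 and EIF2AK2) had an unadjusted p under 0.05. Its sign was above 0 for 34 members with all libraries and for 17 without the intermediate pair.

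The placement of the intermediate libraries was measured over the 25 members whose reference means differed by at least 5 FPKM, taking EGFR-high DMSO replicates 1 and 2 as 0% and EGFR-low DMSO replicates 2 and 3 as 100%. EGFR-high DMSO replicate 3 was at a median of 27.5%, with quartiles of 23.4 and 33.1%. EGFR-low DMSO replicate 1 was at 69.6%, with quartiles of 55.8 and 86.8%. The untreated EGFR-low libraries had medians of -2.14 to -4.82%, on the EGFR-high side of the scale. The spread among members was wide in EGFR-low vorinostat replicate 1, from 28.6% for IFITM3 to over 200% for IFIT2 and EIF2AK2.

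**Figure D4:**
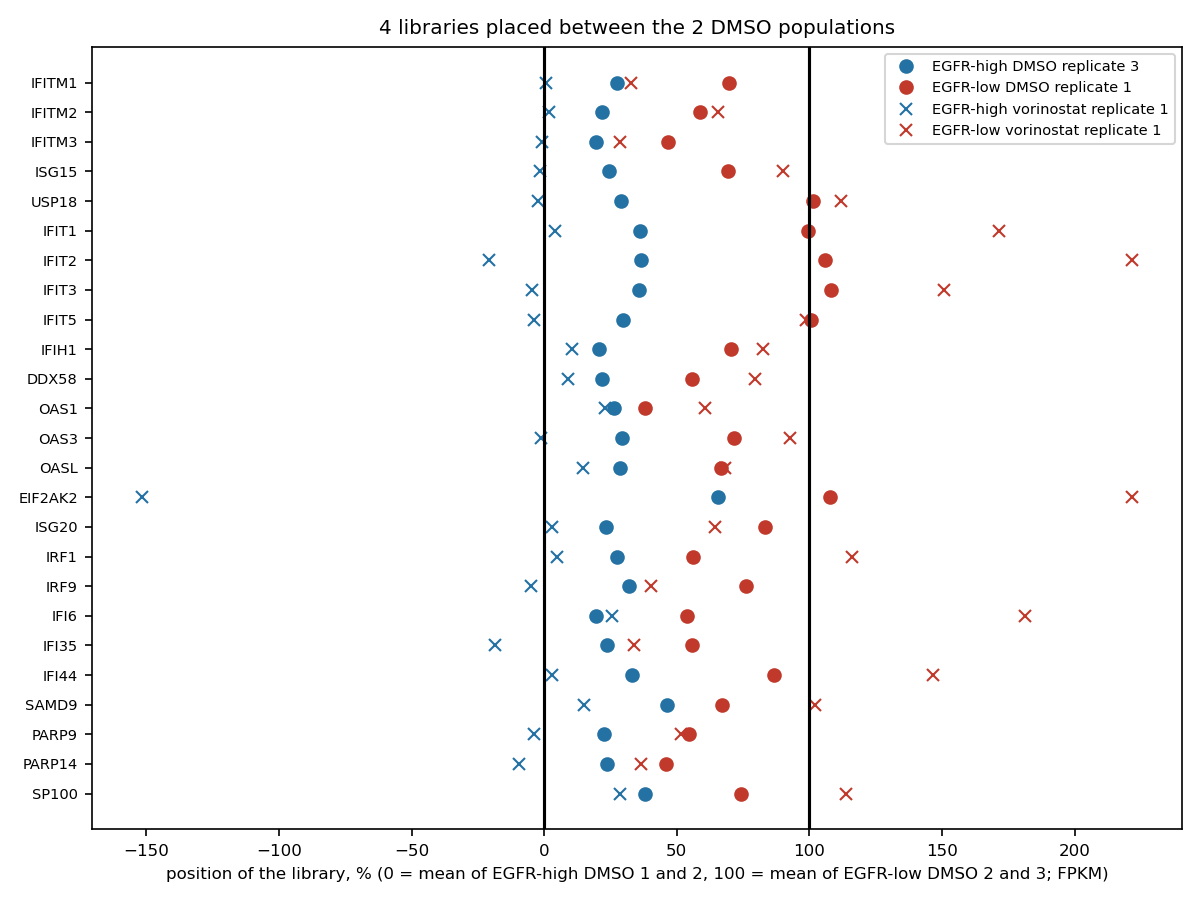
Position of 4 libraries between the populations in DMSO for 25 members; 0 is the FPKM mean of EGFR-high DMSO replicates 1 and 2 and 100% that of EGFR-low DMSO replicates 2 and 3 on a linear axis. EGFR-high DMSO replicate 3 (filled blue) lies between 19.4 and 65.7%, EGFR-low DMSO replicate 1 (filled red) between 38.2 and 108%, and crosses are replicate 1 of each population under vorinostat; the wide values of EIF2AK2 come with a small gap between its reference means.

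The other genes of the pathway were counted from a list of 67 symbols. None of the 11 interferon ligand genes reached the filter. IFNB1 was at no more than 0.0485 FPKM and IFNL1 at no more than 0.142 FPKM, both above 0 in EGFR-low libraries of the vorinostat experiment and, for IFNL1, in EGFR-high DMSO replicate 3. IFNE, an epithelial interferon, was the highest ligand at 0.0979 to 1.103 FPKM, and in the untreated EGFR-low libraries it was 0.863, 1.103 and 0.603 FPKM.

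Of the 11 receptor, kinase and STAT genes 0 were called in untreated cells, beside 3.81% of all genes. In DMSO 2 rose and 2 fell, beside 31.1% of all genes called higher and 20.7% lower. The interferon receptor subunits IFNGR1 and IFNLR1 fell, by 0.59 and 0.52 on the log2 scale. IFNLR1 was under 1 FPKM in every EGFR-low library of the vorinostat experiment and passed the filter through EGFR-high cells. Its direction was thus partly fixed by the filter. In DMSO the sensing and adaptor genes had 4 higher and 1 lower of 10 tested, beside the same 31.1% and 20.7%. IFI16, a sensor of DNA, was at 62.2, 91.4 and 77.2 FPKM against 0.0373, 0.0714 and 29.1 FPKM (log2 fold change 4.58, SE 1.06, adjusted p = 0.00395). It did not reach 1 FPKM in 3 EGFR-high libraries, so its direction was partly fixed by the filter. TMEM173, the adaptor STING, was at 35.98, 51.6 and 42.0 FPKM against 4.15, 2.94 and 13.9 FPKM (2.70, SE 0.39, adjusted p = 0.000352). IRF3, the factor that STING and MAVS activate, fell by 1.04 on the log2 scale (adjusted p = 0.000327). In untreated cells IFI16 was at no more than 0.138 FPKM in any library, and none of the 8 sensing genes tested passed.

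Of the 7 tested negative regulators 4 rose and 1 fell in DMSO, with TRIM21 and ADAR, the editor of double-stranded RNA, up by 1.23 and 1.01 and TREX1, a DNA exonuclease, down with a log2 fold change of -1.12. Among 20 tested further interferon-stimulated genes 8 rose and 1 fell in DMSO, where 31.1% of all genes were called higher and 20.7% lower, and 14 rose and 1 fell under vorinostat, where these shares were 36.2% and 22.8%. PLSCR1, a membrane scramblase, led in DMSO at 50.9, 62.1 and 68.0 FPKM against 11.7, 10.8 and 25.4 FPKM (log2 fold change 1.95, SE 0.27, adjusted p = 0.000334). Over the 48 tested pathway genes the counts were 18 higher and 5 lower in DMSO, with a median of 0.33, beside 31.1% and 20.7% of all genes tested. Under vorinostat they were 26 higher and 6 lower, with a median of 0.56, beside 36.2% and 22.8%. The DMSO counts are near the background and are no result about the pathway.

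In untreated cells 4 pathway genes were called of 44 tested, beside 3.81% of all genes. APOBEC3B, a cytidine deaminase, was at 10.7, 15.7 and 15.2 FPKM in EGFR-low against 57.3, 98.5 and 79.1 FPKM in EGFR-high cells (log2 fold change -2.40, SE 0.30, adjusted p = 0.00126). UBE2L6, the conjugating enzyme for ISG15, was at 0.457, 0.629 and 0.492 FPKM against 4.45, 7.51 and 5.08 FPKM (-2.11, SE 0.27, adjusted p = 0.00141). It was under 1 FPKM in every EGFR-low library and passed the filter through the other groups. The guanylate binding proteins GBP1 and GBP2, GTPases most strongly induced by type II interferon, rose by 1.098 and 1.052 on the log2 scale (adjusted p of 0.0119 and 0.0483 by limma). GBP1 was at 3.89, 4.12 and 3.00 FPKM in EGFR-low against 1.11, 1.67 and 0.821 FPKM in EGFR-high cells. It was under 1 FPKM in every parental library and passed the filter through EGFR-low cells, so its direction was partly fixed by the filter. APOBEC3B and GBP2 were over 1 FPKM in every untreated library, so pathway genes of both directions passed without this limit.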

How the data were processed

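The 21 libraries held polyadenylated RNA from 7 groups of PC-9 cells. The submitters' processing notes name STAR 2.5.1b, Cufflinks 2.2.1, DESeq2 1.10.1 and hg19, without saying what each did. The values deposited by the authors were read as FPKM, a unit inferred from the values although their naming says counts. Whether strand was used is not given in the sources used here. Depth is unknown, so no counting interval is given, and the number of libraries limits the precision.

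Each experiment was filtered to genes that reached 1 FPKM in 3 or more of its libraries and fitted on log2(FPKM + 1) with limma 3.58.1 (mean-variance trend) in R 4.3.3, with 1 mean per group and no block. The pseudocount of 1 understates fold changes of low genes. P-values were adjusted by Benjamini-Hochberg over all genes tested in a comparison, at a threshold of 0.05. On simulated data the fit found 14% of genes changed by 1 and 84% of those changed by 2 log2 units (100 genes each) in the untreated comparison of EGFR-low with EGFR-high, with 9 false calls, and 70% and 95% in DMSO, with 11. The changes were placed only in genes above a set mean level, so these rates do not describe members near 0. All other genes were simulated without a difference and with normal noise, while 51.8% of genes were called in the measured DMSO comparison. The simulated rates therefore do not give the share of changes found in that comparison. The paper describes biological replicates as separate experiments in time. The deviations of same-numbered libraries correlated at 0.343, 0.73 and 0.689 for untreated EGFR-low and EGFR-high, at 0.353, 0.351 and 0.163 for the same under vorinostat, and at 0.267, 0.302 and 0.329 for vorinostat and DMSO in EGFR-low cells. With each over 0.1, the numbers were taken to pair these libraries.

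The members and all gene and marker lists were chosen with earlier results of these data known. Values in every library are given for called members (the 12 with the largest change where more were called), the IFITM genes and up to 3 called genes per pathway list. Members and pathway genes named for other reasons were chosen after their values were seen. Alternatives were pseudocounts of 0.1 and 5, no filter, a filter of 5 FPKM, median-of-ratios scaling, the replicate block and leaving out each library. The fit without the 2 intermediate libraries was chosen after seeing the data. Values of 1 gene of the pathway list are not reported here. Promoter windows were searched in Python 3.11.15 with pandas 2.3.3.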

Additional observations from a re-analysis of the deposited data

Results flagged for a closer look

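Of the 24 members tested in both experiments, 7 had all EGFR-low libraries below all EGFR-high libraries in untreated cells and above them in DMSO, beside 3.20% of the 11118 genes tested in both. IFIT1, IFIT2, IFIT5, OAS3 and OASL were under 1 FPKM in every untreated EGFR-low library, so the filter partly fixed their untreated direction. The difference between the experiments was not tested. The log2 fold changes, untreated and then in DMSO, were -0.83 and 1.79 for IFIT1, -0.66 and 1.30 for IFIT2, and -1.38 and 1.97 for IFIT5. They were -0.23 and 1.77 for the RNA sensor IFIH1. For the oligoadenylate synthetase family they were -1.03 and 1.42 for OAS1, -1.28 and 1.93 for OAS3, and -0.68 and 1.82 for OASL. Groups of 3 libraries are too small for the check on single outlying libraries.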

How the results depend on the processing

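The 3 members called lower in untreated EGFR-low cells stayed at 3 with either pseudocount, with median-of-ratios scaling and with any 1 library left out (3 to 3). A filter of 5 FPKM left 4 members to test and 0 called, without a filter 6 of 40 were called, adding IFIT2, IFI6 and, higher, IFI44L and losing none, and the replicate block gave 7. Against parental cells the single call became 0 with a filter of 5 FPKM or a pseudocount of 5, 2 with median-of-ratios scaling, a pseudocount of 0.1 or the replicate block, and 0 to 1 with a library left out. No filter also gave 1, IFI44L in place of BST2. Genes called over all 11305 rose with the block from 431 to 965 and from 181 to 525 in these 2 comparisons. The number did not pair EGFR-low or EGFR-high with parental cells, the populations in DMSO, or vorinostat and DMSO in EGFR-high cells, where a correlation was under 0.1. The block changed no other member count. In the vorinostat experiment the counts for EGFR-low against EGFR-high were 25 to 37 in DMSO and 27 to 39 under vorinostat over all settings, fewer and more through the number of members tested. The counts for vorinostat against DMSO and for the interaction were 0 in every setting. No called member reversed. Among values that were not called, the sign of many vorinostat responses turned without the 2 intermediate libraries: in EGFR-high cells members above and below 0 went from 5 and 31 to 19 and 17, in EGFR-low cells from 25 and 11 to 17 and 19. Depth is unknown and limits what can be said of members near 0.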
